A study of Mus musculus with 9 samples.

Results

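Cathepsins are the proteases of the lysosome, the compartment in which cells break down proteins and engulfed material. Most lysosomal cathepsins are cysteine proteases, whereas cathepsins D and E are aspartic proteases and cathepsin A is a serine carboxypeptidase. Legumain, encoded by Lgmn, is an asparaginyl endopeptidase that can process several of them. They are made as inactive precursors, most of which are sorted to the lysosome through mannose 6-phosphate, and in neutrophils, short-lived phagocytes that carry preformed granules, cathepsin C also activates the serine proteases stored in those granules. Transcription factors of the TFEB family bind near the start of many lysosomal genes and are held in the cytoplasm when the kinase complex mTORC1 is active.

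The 10 genes Ctsa, Ctsb, Ctsc, Ctsd, Ctse, Ctsh, Ctsl, Ctss, Ctsz and Lgmn were taken by symbol from a table of 7197 listed genes. Of these, 9 were listed and all 9 had a mean of at least 10 normalized counts, the level above which 6673 genes were tested. Lgmn was not listed and was not analysed here. The list was selected on gene names with the measured genotype difference of Ctsd in these libraries already known, so that difference is given as a description.

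Neutrophils sorted from bone marrow as CD45+, CD11b+ and Ly6G+ cells were compared between 5 Rragc+/+ and 4 RragcS74N/+ libraries from mice aged 2 months. Rragc encodes RagC, a subunit of the Rag GTPases that signal amino acid sufficiency to mTORC1. RragcS74N/+ mice carry 1 allele, edited by CRISPR in every cell of the body, that encodes an active form of RagC, and Rragc+/+ mice carry no edited allele. The study describes cells from several mice of each genotype, more RragcS74N/+ mice than there are libraries here, and the labels do not tie libraries to animals. P-values therefore measure the spread between these libraries. Each value is a read count of transcript 3′ ends that the authors divided by 1 size factor per library, here called a normalized count. Libraries held 1214295 to 1973957 recovered reads over the listed genes.

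The labelled cell type was checked first. All 3 sorting markers, all 9 markers of mature neutrophils and all 6 markers of secondary granules were listed, and the summed sorting markers ranged from 4963 to 5838 normalized counts in Rragc+/+ and from 4972 to 6159 in RragcS74N/+. Rragc itself measured 71.0 ± 10.3 normalized counts (SD, n = 5) in controls and 65.8 ± 9.52 (SD, n = 4) in RragcS74N/+ cells, and a gene count does not show which allele was transcribed. Rragc+/+ replicate 2 stood apart, its Spearman correlation with the remaining libraries averaging 0.891, where every other library had 0.929 to 0.951. It is the shallowest library. Without it, log2 changes were 0.12 for Ctse, -0.28 for Ctsa and -0.25 for Ctsb, correlations with Ctsd were 0.50 for Ctsa and 0.55 for Ctsb, and 0 of all tested genes had a correlation with Ctsd that passed adjustment.

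Stretches before annotated starts of Ctsd and Ctsa are shown because Ctsd is the gene the comparison turned on and Ctsa had the highest correlation with it. Sequences are from RefSeq on GRCm38.p6, which had entries for 6 of the 9 listed genes. Capitals mark CACGTG, the core of the sequence bound by the TFEB family, which reads the same on both strands. The bases before the start were printed for Ctsd at chr7:142387828-142388077 on the minus strand. The bases before the second annotated start of Ctsa and the first 30 from it were printed at chr2:164833523-164833802 on the plus strand.
Ctsd: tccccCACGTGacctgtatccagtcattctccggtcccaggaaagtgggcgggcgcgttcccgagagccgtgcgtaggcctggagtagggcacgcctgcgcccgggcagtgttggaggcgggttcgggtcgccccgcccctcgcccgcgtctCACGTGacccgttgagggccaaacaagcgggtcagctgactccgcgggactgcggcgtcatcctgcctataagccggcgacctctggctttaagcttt
Ctsa: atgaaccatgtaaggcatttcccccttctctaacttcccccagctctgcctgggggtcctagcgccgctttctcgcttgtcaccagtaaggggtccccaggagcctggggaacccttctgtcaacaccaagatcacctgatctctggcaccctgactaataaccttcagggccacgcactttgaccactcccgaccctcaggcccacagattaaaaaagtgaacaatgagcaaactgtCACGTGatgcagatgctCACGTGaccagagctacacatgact

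Windows of 300 bases were searched, with 250 before the start and 50 from it on. CACGTG occurred at 2 positions for Ctsd, whose first bases lay at -245 and -98 from the start, and at 2 positions for the second start of Ctsa, at -12 and 5. It was not found in the windows of Ctsz, Ctss, Ctsc or the first start of Ctsa. Lgmn, which was not listed among the measured genes, held 1 at its second start. Of 32851 windows in the table, 7.15% held CACGTG and 0.594% held 2 or more. A match describes the letters only. These starts are RefSeq's. In the GENCODE annotation of the same build, the coding transcripts of Ctsd start at positions 142387857 and 142388038 of chromosome 7, against 142387827 in RefSeq, so the match at -98 lies before the first of these starts and inside the longer transcript's span. Those of Ctsa start at 164832873 to 164832926 and at 164833815 of chromosome 2, against 164833773 for the second RefSeq start, so the Ctsa stretch lies within the gene. The window of Ctsl, which lies inside its longest GENCODE transcript, held 1, at -236.

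Ctsd, which encodes the aspartic protease cathepsin D, was the most abundant of the cathepsin transcripts, above 98.1% of listed genes. Since reads come from the 3′ end, values were not divided by transcript length. Next came Ctsh, encoding an aminopeptidase, then Ctsb, encoding a protease that can also remove dipeptides, then Ctss, whose product takes part in antigen processing. Ctse, Ctsc, Ctsa, Ctsz and Ctsl followed at means of 36.4 to 62.1 normalized counts over the 9 libraries. Ctsd was higher than Ctsh in all 9 libraries, by 4.32 times in the geometric mean. Ctsh was higher than Ctsb in all 9 libraries and Ctss higher than Ctse in all 9, whereas Ctsb was higher than Ctss in 7 of 9. The order of the lower genes was not constant, since Ctse was above Ctsc in 7 libraries, Ctsc above Ctsa in 7, Ctsa above Ctsz in 5 and Ctsz above Ctsl in 6. The 14 other mouse cathepsin genes examined, among them Ctsg, Ctsk and Ctsw, were not listed.

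In Rragc+/+ replicates 1 to 5, Ctsd measured 1357, 2094, 1483, 1408 and 1005 normalized counts. In RragcS74N/+ replicates 1 to 4 it measured 944, 1069.5, 993 and 807. The highest value was in Rragc+/+ replicate 2, and the groups overlapped through Rragc+/+ replicate 5, which lay below RragcS74N/+ replicate 2. The means were 1469 ± 395 (SD, n = 5) and 953 ± 110 (SD, n = 4), a log2 change of -0.59 (SE 0.20), computed on log2(value + 1). The change was -0.45 without Rragc+/+ replicate 2. It was -0.30, with an error of 0.14, once values had been adjusted for the GC content of transcript ends in each library. Relative to the mean, the SD of Ctsd in Rragc+/+ was 26.9%, below the 59.3% of Ctsa and the 41.3% of Ctse.

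**Figure D1:**
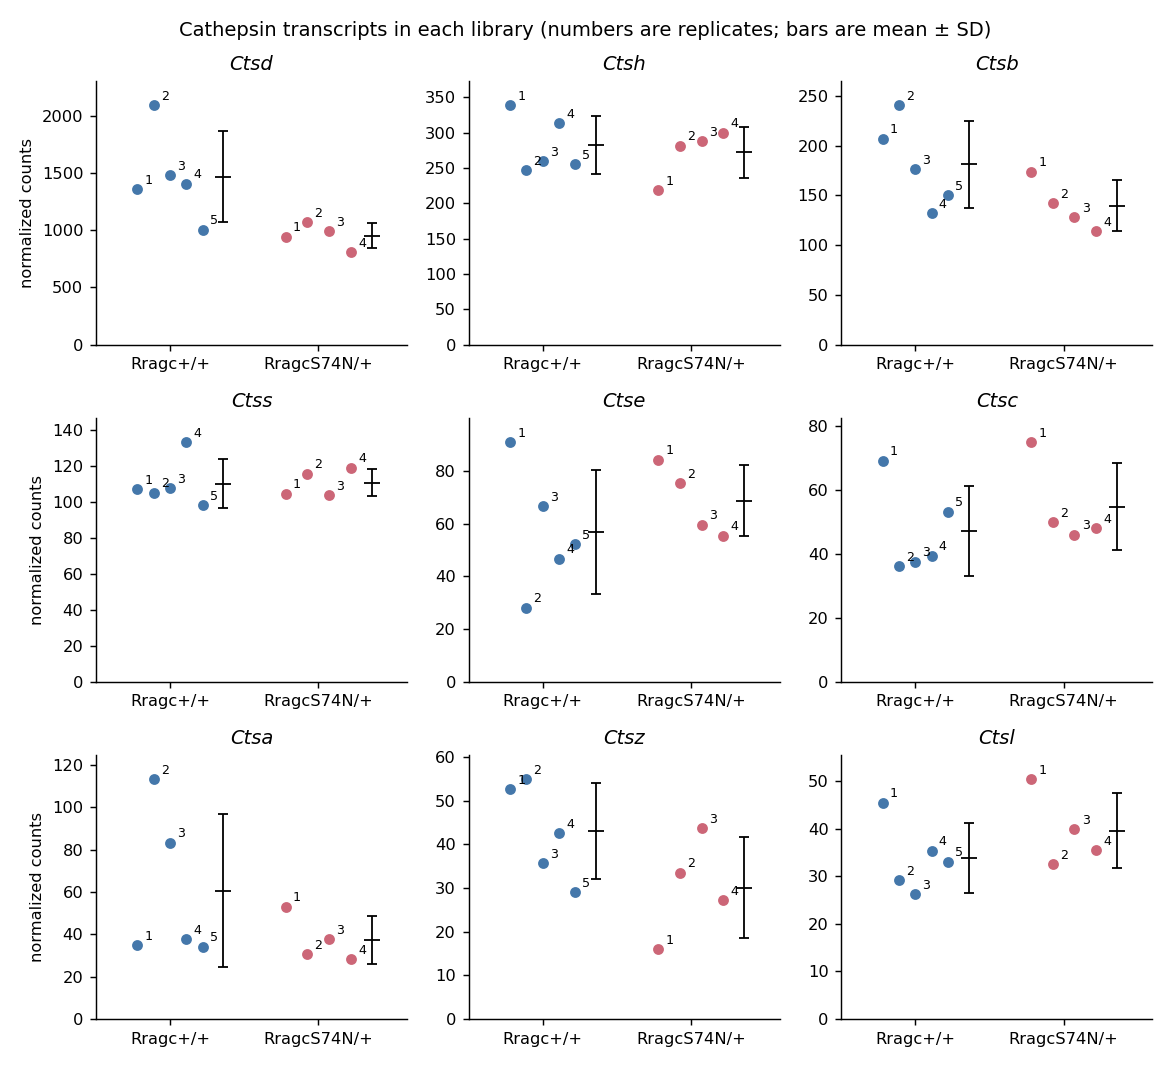
Normalized counts (y axis, from 0) of each of the 9 listed cathepsin genes in each library, by genotype, with replicate numbers beside the points and bars for mean ± SD. Ctsd reaches 2094 in Rragc+/+ replicate 2 and lies between 807 and 1069.5 in RragcS74N/+, and the genotypes overlap for every gene.

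The sum over the 9 genes ranged from 1710.5 to 2948 normalized counts in Rragc+/+ and from 1534 to 1831 in RragcS74N/+. Ctsd supplied 63.6% ± 5.09 of the Rragc+/+ sums (SD, n = 5) and 55.7% ± 2.56 of the RragcS74N/+ sums (SD, n = 4). Without Ctsd the sums were 816 ± 90.0 (SD, n = 5) and 753 ± 20.7 (SD, n = 4), so most of the distance between the summed levels was in Ctsd.

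The other aspartic protease, cathepsin E, did not share the direction of Ctsd. Ctse measured 90.9, 28.0, 66.5, 46.6 and 52.1 normalized counts in Rragc+/+ and 84.2, 75.2, 59.5 and 55.4 in RragcS74N/+. Its lowest value was in Rragc+/+ replicate 2, the library in which Ctsd was highest. The log2 change of Ctse was 0.35 (SE 0.28), with a 95% interval from -0.26 to 0.96.

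Ctsa, encoding the carboxypeptidase that also protects other lysosomal hydrolases, measured 34.9, 113, 83.4, 37.8 and 34.1 normalized counts in Rragc+/+. In RragcS74N/+ it measured 53.0, 30.5, 37.7 and 28.2. Rragc+/+ replicates 2 and 3 stood above all other libraries, and the remaining 3 Rragc+/+ libraries lay within the RragcS74N/+ range. The log2 change was -0.54 (SE 0.35) with an interval from -1.30 to 0.21, and without Rragc+/+ replicate 2 it was -0.28.

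Among the cysteine proteases with broad activity, Ctsb measured 207, 241, 176, 132 and 150.4 normalized counts in Rragc+/+ and 174, 142, 128 and 114 in RragcS74N/+. Rragc+/+ replicates 1, 2 and 3 lay above all RragcS74N/+ libraries and Rragc+/+ replicates 4 and 5 lay among them. Its log2 change was -0.36 (SE 0.20), with an interval from -0.80 to 0.08. Ctsl measured 45.4, 29.2, 26.2, 35.4 and 33.1 normalized counts in Rragc+/+ and 50.4, 32.5, 39.9 and 35.5 in RragcS74N/+. The log2 change of Ctsl was 0.22, with an interval from -0.24 to 0.69. Ctss, at 107, 105, 108, 133 and 98.3 in Rragc+/+ and 105, 116, 104 and 119 in RragcS74N/+, had the smallest difference, with a log2 change of 0.01 and an interval from -0.33 to 0.36. Its SD was 12.2% of the mean in Rragc+/+ and 6.96% in RragcS74N/+, the lowest of the 9 genes in both.

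Ctsz, encoding the carboxypeptidase cathepsin Z, measured 52.7, 54.9, 35.6, 42.6 and 29.1 normalized counts in Rragc+/+. It measured 15.9, 33.5, 43.7 and 27.2 in RragcS74N/+, with the lowest value of all in RragcS74N/+ replicate 1. The log2 change of Ctsz was -0.55, with an interval from -1.16 to 0.06. Ctsh measured 339, 247, 259.6, 314 and 256 in Rragc+/+ and 219, 282, 288 and 299.9 in RragcS74N/+, a log2 change of -0.06 with an interval from -0.42 to 0.31. Ctsc, whose product removes dipeptides and activates granule serine proteases, measured 69.2, 36.2, 37.5, 39.4 and 53.1 in Rragc+/+. In RragcS74N/+ it measured 74.9, 49.8, 45.9 and 48.1, and its log2 change of 0.23 had an interval from -0.28 to 0.73.

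Between genotypes, limma gave 0 of the 9 genes a Benjamini-Hochberg adjusted p-value under 0.05, where 0% of the 6673 tested genes passed, and the adjusted p-values of the 9 ran from 0.713 to 0.988. At an unadjusted p-value under 0.05 there was 1 of the 9, Ctsd, for which the list was chosen, against 5.81% of all tested genes, with 3.81% lower and 2.01% higher in RragcS74N/+. edgeR and DESeq2 on the recovered reads likewise passed 0 of the 9 after adjustment and had 1 each before it. In RragcS74N/+ the mean was lower for 5 of 9 genes, against 46.6% of all genes, and the median log2 change was -0.06 against 0.02 over all genes. Both the count and the median include Ctsd, for which the list was chosen. That median turned to 0.0041 without Rragc+/+ replicate 1 and to 0.039 without RragcS74N/+ replicate 1. The genotypes were separate for 0 of the 9 genes and for 1.69% of all genes.

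**Figure D2:**
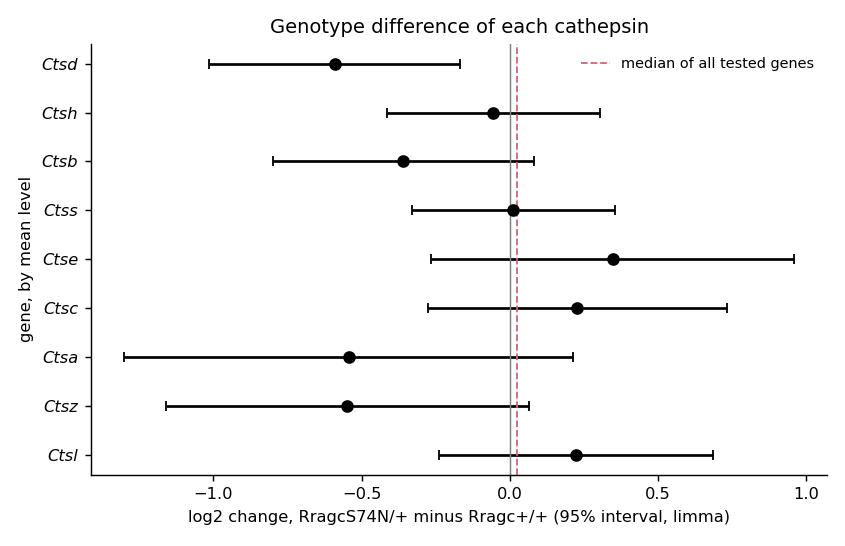
Log2 change of each cathepsin gene, RragcS74N/+ minus Rragc+/+, with 95% intervals from limma (x axis), genes ordered by mean level (y axis), and the median of all tested genes as a dashed line. Ctsd, Ctsa, Ctsz, Ctsb and Ctsh lie below 0 and Ctss, Ctsl, Ctsc and Ctse above it, and all intervals but that of Ctsd, for which the list was chosen, include 0.

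Whether the other cathepsins followed Ctsd from library to library was examined next, with Pearson's r of log2(value + 1) over the 9 libraries and exact permutation over all 362880 pairings, two-sided. The genes did not share a pattern. Over all 9 libraries r was positive for Ctsa, Ctsb and Ctsz, near 0 for Ctsh and Ctss, and negative for Ctsc, Ctse and Ctsl. After adjustment over the 6672 other tested genes, 0 of the 8 correlations passed 0.05, where 8.18% of all genes did. That share was 0% without Rragc+/+ replicate 2, with genotype means removed or after adjustment for GC content, and 1 gene passed by Spearman's rho, so the adjusted p-values of single genes given here hold for Pearson's r over all 9 libraries. Before adjustment 3 of 8, or 37.5%, were under 0.05, against 31.1% of all genes, and all 3 were positive, against 16.4% of all genes. The sign was positive for 4 of the 8 and for 48.9% of all genes. The median r of the 8 genes was 0.0018 and that of all genes -0.019, with 4 of the 8 on each side of 0, and the median ran from -0.17 to 0.28 when 1 library was left out.

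Ctsa had r = 0.76 with Ctsd (exact permutation p = 0.0150, adjusted 0.0860) and Spearman's rho = 0.63 (exact permutation p = 0.0760). With genotype means removed and permutation within genotypes, r was 0.74. Without Rragc+/+ replicates 2 and 3, the libraries farthest from the median Ctsd value, r was 0.11, so the relation rested on those 2 libraries, the ones in which Ctsa was high. Ctsb had r = 0.76 (exact permutation p = 0.0176, adjusted 0.0931) and rho = 0.67 (exact permutation p = 0.0589), with 0.62 after removal of genotype means and 0.46 without the 2 libraries. Ctsz had r = 0.69 (exact permutation p = 0.0371, adjusted 0.136) and rho = 0.72 (exact permutation p = 0.0369), with 0.52 after removal of genotype means and 0.67 without the 2 libraries. Adjustment for GC content lowered r to 0.61 for Ctsa, 0.70 for Ctsb and 0.29 for Ctsz. Among all tested genes, 10.9% had a higher r than Ctsa, 11.3% a higher r than Ctsb and 15.3% a higher r than Ctsz.

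**Figure D3:**
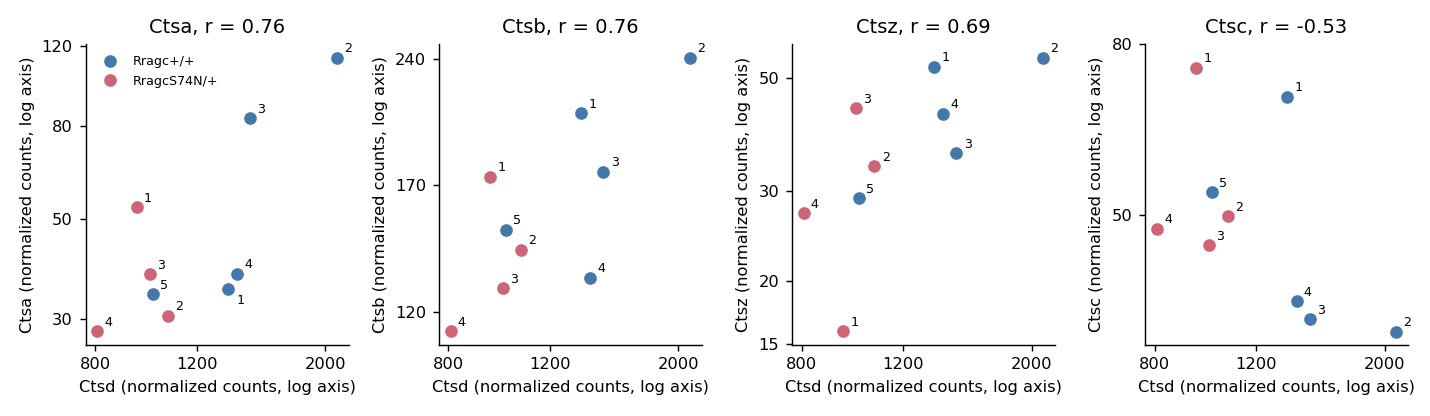
Normalized counts of Ctsa, Ctsb, Ctsz and Ctsc (y axes, log scale) against those of Ctsd (x axes, log scale) in the 9 libraries, colored by genotype and numbered by replicate, with Pearson's r above each panel. Ctsa is at 113 and 83.4 in Rragc+/+ replicates 2 and 3 and at 53.0 or less elsewhere, whereas Ctsc is lowest, at 36.2, where Ctsd is highest.

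Ctsc and Ctse had r = -0.53 and r = -0.52 with Ctsd (exact permutation p = 0.149 and p = 0.149, adjusted 0.308 for each), with rho = -0.63 (exact permutation p = 0.0760) and rho = -0.30 (exact permutation p = 0.437). Without Rragc+/+ replicate 2 the r of Ctse was 0.085, and without the 2 farthest libraries it was 0.071, so the relation of Ctse did not hold. For Ctsc r was -0.33 without Rragc+/+ replicate 2, -0.44 with genotype means removed and -0.086 without the 2 farthest libraries. Ctsl had r = -0.47 (exact permutation p = 0.203, adjusted 0.374) and rho = -0.67 (exact permutation p = 0.0589), with r = 0.059 without the 2 libraries. Ctsh had r = -0.013 (exact permutation p = 0.974, adjusted 0.987) and Ctss r = 0.016 (exact permutation p = 0.965, adjusted 0.983). Spearman's rho was -0.017 for Ctsh and 0.18 for Ctss (exact permutation p = 0.982 and p = 0.644). After adjustment for GC content over all 9 libraries, r was -0.036 for Ctsc, -0.22 for Ctse and -0.027 for Ctsl. It was -0.39 for Ctsh and 0.28 for Ctss.

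**Figure D4:**
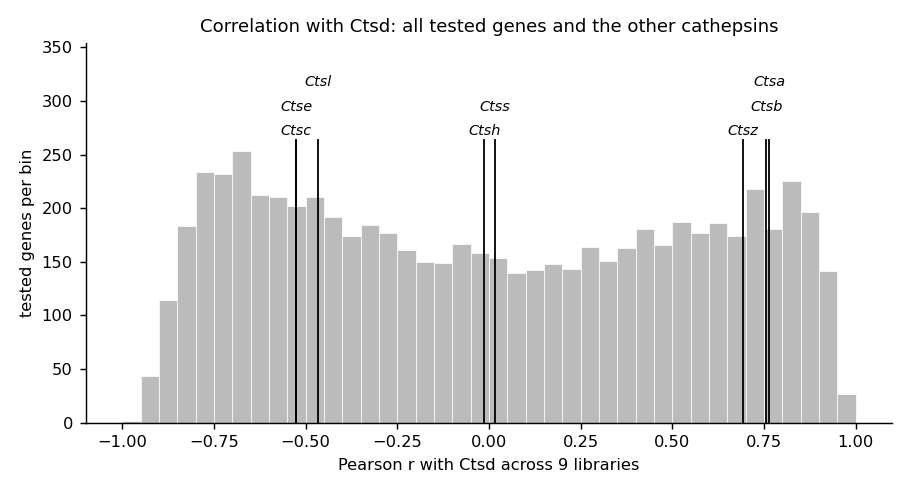
Number of tested genes (y axis) by Pearson's r with Ctsd over the 9 libraries (x axis), with a vertical line for each of the other 8 cathepsin genes. The cathepsins lie on both sides of 0, from -0.53 for Ctsc to 0.76 for Ctsa, within a wide distribution whose quartiles are -0.51 and 0.51.

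Among the other cathepsins, given as a description over the 9 libraries, the highest r was 0.86 between Ctsc and Ctsl, followed by 0.74 between Ctsc and Ctse and 0.73 between Ctsa and Ctsb. The lowest was -0.56, between Ctsa and Ctsh. Ctsc and Ctsl shared their 2 highest libraries, Rragc+/+ replicate 1 and RragcS74N/+ replicate 1, which were also the 2 highest for Ctse and the 2 with the most reads.

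Measures of the libraries moved with several of these genes, and 18 relations between the 9 genes and 2 library measures were computed after the values had been seen. The first measure was the GC slope, fitted to each log2 value minus that gene's mean over the 9 libraries. It is the change for each 10 points of GC percentage in the last 500 bases of a transcript, relative to the average library. The slope averaged 0.0845 ± 0.150 (SD, n = 5) over Rragc+/+ and -0.106 ± 0.0876 (SD, n = 4) over RragcS74N/+ libraries, highest in Rragc+/+ replicate 2 at 0.303 and lowest in RragcS74N/+ replicate 1 at -0.213. Ctsd followed the GC slope with r = 0.94 (exact permutation p = 0.000485, adjusted over the 18 relations 0.00873) and rho = 0.93 (exact permutation p = 0.000750). The r was 0.91 without the 2 libraries of most extreme slope and 0.89 with genotype means removed. Ctsz followed it with r = 0.83 (exact permutation p = 0.00740, adjusted 0.0444) and rho = 0.85 (exact permutation p = 0.00607), and r was 0.69 without the 2 libraries (exact permutation p = 0.0935) and 0.74 with genotype means removed. Ctsd and Ctsz had the highest GC content of the listed cathepsin genes. Whether they followed the slope more closely than other genes of similar GC content was not tested. The part of GC content in the Ctsd difference between genotypes was not tested beyond the value with the trend removed.

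The second measure was the total of recovered reads on the log2 scale. Ctsl followed it with r = 0.87 (exact permutation p = 0.00303, adjusted 0.0273) and rho = 0.85 (exact permutation p = 0.00607), and r was 0.67 without the 2 libraries of most extreme depth (exact permutation p = 0.0923) and 0.88 with genotype means removed. Ctsc and Ctse had r = 0.76 each (exact permutation p = 0.0192 and p = 0.0158, adjusted 0.0691 for both) and rho = 0.52 and 0.65 (exact permutation p = 0.162 and p = 0.0666). For Ctsc r was 0.22 without those 2 libraries and for Ctse 0.55. Ctsd had r = -0.33 with depth (exact permutation p = 0.387, adjusted 0.580). In all, 3 of the 18 relations passed the adjusted threshold. The share of all tested genes that followed either library measure was not computed, so this count has no background.

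**Figure D5:**
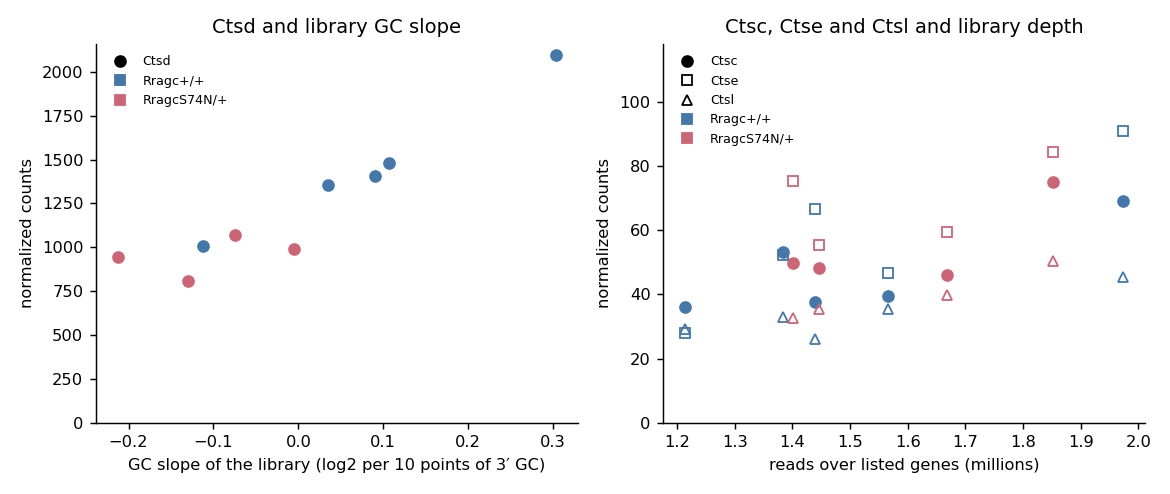
Left, normalized counts of Ctsd (y axis) against the GC slope of each library (x axis). Right, normalized counts of Ctsc, Ctse and Ctsl (y axis) against the recovered reads of each library (x axis), colored by genotype. Ctsd is highest in the library with the steepest slope, 0.303, and Ctsc, Ctse and Ctsl are highest in the 2 deepest libraries.

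The GC content of the last 500 bases of the transcript was highest for Ctsd and Ctsz and lowest for Ctsc and Ctsl. It was 56.4% for Ctsd, 54.4% for Ctsz, 49.6% for Ctsb, 49.2% for Ctsh and 47.0% for Ctsa, and 41% for Ctse, 40.6% for Ctss and 37.2% for both Ctsc and Ctsl, around a median of 43% over tested genes. Across 6555 genes, which are not independent replicates, Spearman's rho between 3′ GC content and r with Ctsd was 0.44. The median r with Ctsd was -0.38 in genes with a GC content up to 37.4% and 0.52 in those at 49% or more.

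Among genes whose mean reached 50 normalized counts, the 5 with the pattern most like that of Ctsd were Furin, Fmnl1, Gadd45b, Arhgap9 and Npc2. Furin, encoding a proprotein convertase, had r = 0.98 (exact permutation adjusted p = 0.0202) and measured 299, 493, 382, 351 and 224 normalized counts in Rragc+/+ and 217, 211, 214 and 175 in RragcS74N/+. Its genotypes did not overlap, which held for 1.69% of tested genes. Furin was picked for its likeness to Ctsd, whose genotype difference was known, so that share is not a background for it. Npc2, encoding a cholesterol-binding protein of the lysosome, had r = 0.97 (exact permutation adjusted p = 0.0202) and measured 207, 363, 265, 187 and 136 in Rragc+/+ and 131, 151, 154 and 123 in RragcS74N/+. Both genes were highest in Rragc+/+ replicate 2, as Ctsd was. Fmnl1, encoding a formin of the actin cytoskeleton, had r = 0.98, Gadd45b, a stress-induced gene, 0.98, and Arhgap9 0.97. Without Rragc+/+ replicate 2 these 5 values ranged from 0.93 to 0.97. After adjustment for GC content, r was 0.36 for Fmnl1 and 0.83 to 0.93 for the other 4.

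Other genes of the pathway were counted from lists. Of 18 named inhibitors of cathepsins, 10 were listed and tested and 0 passed the adjusted threshold. In RragcS74N/+, where 46.6% of all genes were lower, 9 of the 10 had a higher and 1 a lower mean log2 value. The median log2 change of the 10 was 0.42, against 0.02 over all genes, and their median r with Ctsd was -0.57. The stefins Stfa2, Stfa1 and Csta3, cytosolic inhibitors of cysteine cathepsins, had log2 changes of 0.72, 0.82 and 0.64 with standard errors of 0.27, 0.32 and 0.27 and unadjusted limma p-values of 0.0176, 0.0222 and 0.0332. Each adjusted p-value was 0.713. Stfa1 measured 423 ± 155 normalized counts (SD, n = 5) and 752 ± 314 (SD, n = 4). These genes have near-identical copies, between which the alignment may have split reads. Serpinb1a, which encodes an inhibitor of neutrophil serine proteases, was the 1 inhibitor whose r with Ctsd passed the adjusted threshold, at -0.89 (exact permutation adjusted p = 0.0327), and it was named after its value was seen. That is 1 of the 10 tested, where 8.18% of all genes passed.

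Of 21 genes named for lysosomal delivery, among them the proprotein convertase Furin, 17 were tested and 0 passed the adjusted threshold. In RragcS74N/+, where 46.6% of all genes were lower, 9 of the 17 were lower and 8 higher. The 3 with the smallest p-values were Furin, Ap1b1, a subunit of the AP-1 adaptor, and Scarb2, the receptor that carries glucocerebrosidase to the lysosome, with log2 changes of -0.73, -0.89 and -0.57 (limma adjusted p = 0.713 for each). The receptors for mannose 6-phosphate, M6pr and Igf2r, had log2 changes of 0.32 and 0.06 and r with Ctsd of -0.67 and -0.58. They were named after their values were seen. Over the list r was positive for 9 and negative for 8 genes with a median of 0.45. Adjustment was passed by 3 of the 17, against 8.18% of all genes for either sign and 377 of 6672 for a positive r. The 3 were Furin, Scarb2 (0.86) and Ap1m1 (0.92), all positive. Furin was also the gene most like Ctsd among genes whose mean reached 50 normalized counts. The list was chosen with earlier results of these data known, so the count is a description.

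Of 56 other lysosomal enzymes and membrane proteins, 37 were tested and 0 passed. In RragcS74N/+, where 46.6% of all genes were lower, 26 of the 37 were lower and 11 higher. The median log2 change was -0.14, against 0.02 over all genes. The median r of the 37 with Ctsd was 0.38, and 6 of them passed the adjusted threshold for it, all positive. Of all genes, 8.18% passed for either sign and 377 of 6672 with a positive r. Npc2, Lipa, the lysosomal acid lipase, and Cd68, a lysosomal membrane glycoprotein, had log2 changes of -0.65, -0.52 and -0.54. Of the 7 genes of the TFEB family list, 6 were tested and 0 passed between genotypes. Tfeb and Tfe3 had r = 0.90 and r = 0.89 with Ctsd (exact permutation adjusted p = 0.0309 and p = 0.0297) and log2 changes of -0.57 and -0.50, and Fnip2, which encodes a partner of folliculin, had -0.17. The other 4 genes of that list had negative r, from -0.46 for Fnip1 to -0.032 for Fnip2, and the list's median was -0.14. Of the 6 tested, 2 passed adjustment for r, against 8.18% of all genes. Without Rragc+/+ replicate 2, r was 0.81 for Tfeb and 0.76 for Tfe3, and after adjustment for GC content 0.57 and 0.72. Of the 7 granule serine proteases named as substrates of cathepsin C, 1, Prss57, was listed, with a log2 change of -0.36.

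Markers of other cells were read beside these values, since in sorted cells fewer cells of a type and less RNA per cell cannot be told apart. Macrophages and monocytes are rich in cathepsins, and 10 of their 20 markers were listed. The 10 listed summed to 2314 to 3592 normalized counts in Rragc+/+ and 2348 to 4135 in RragcS74N/+. Ly6c2 was the most abundant, with a mean of 2676 over the 9 libraries, a log2 change of 0.0008 and r with Ctsd of -0.12. The sorting marker Ly6g had a mean of 2710. Whether Ly6c2 transcripts came from the neutrophils or from other cells was not tested, so the sum with Ly6c2 does not measure macrophages and monocytes. Those other than Ly6c2 summed to 215 to 511 normalized counts in Rragc+/+ and 197 to 270 in RragcS74N/+. Csf1r, the most abundant of them, measured 103, 339, 189, 168 and 85.2 in Rragc+/+ and 133, 103, 99.4 and 71.1 in RragcS74N/+, highest in Rragc+/+ replicate 2. Its r with Ctsd was 0.89 (exact permutation adjusted p = 0.0383) and 0.77 without that library. Of the 8 markers tested r was positive for 5 and negative for 3, among them Mrc1 (-0.73) and Vcam1 (-0.58), with a median of 0.24. Adjustment was passed by 1 of the 8, against 8.18% of all genes. The complement genes C1qa, C1qb and C1qc lay between 4.64 and 30.4 normalized counts in every library, and 10 markers, among them Cx3cr1, Ccr2 and Siglec1, were not listed.

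Erythroid markers, of which 8 of 12 were listed, summed to 1104 to 5644 normalized counts in Rragc+/+ and 386 to 2171 in RragcS74N/+. The 7 tested had a median log2 change of -1.38, against 0.02 over all genes, with 6 lower and 1 higher. At an unadjusted limma p-value under 0.05, 5 of the 7 were lower, against 3.81% of all genes, and 0 passed adjustment. Their median r with Ctsd was 0.18. Eosinophil and basophil markers, 5 of 10, summed to 123 to 429 in Rragc+/+ and 122 to 593 in RragcS74N/+. Of B cell markers 2 of 8 were listed, of T and NK cell markers 1 of 8 and of platelet markers 0 of 6. The part of other cells in the cathepsin values was not tested.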

How the data were processed

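Per the study's methods, the authors prepared 3′-end libraries with molecular identifiers from sorted neutrophils, aligned reads to GRCm39 with TopHat2 (2.0.10 in the submitters' notes), allowing 3 mismatches and 20 hits, and counted them by strand with HTSeq 0.6.1. The deposited signal values are gene read counts divided by 1 size factor per library. Whole reads were recovered from 100% of values (tolerance 0.01). Collapse of reads by identifier and the filter that chose listed genes were not given in the sources used here. If reads were not collapsed, counting error is understated.

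Genotypes were compared with limma 3.58.1 (R 4.3.3) on log2(value + 1), with trend and Benjamini-Hochberg adjustment over all 6673 tested genes at 0.05, which understates changes of low genes. edgeR 4.0.16 and DESeq2 1.42.0 on recovered reads were alternatives. Correlations were adjusted over all 6672 other genes in place of the planned adjustment over the cathepsins alone. Genes were matched by symbol. Gene ends and GC content came from GENCODE on GRCm38, not the authors' build, for 7067 genes. Ctss and Ctsl overlap processed pseudogenes and Ctsd a predicted gene on the same strand. All 16 same-genotype pairs of libraries differed by more than counting error (chi-square per degree of freedom at least 5.76). The tests were checked on simulated data.

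The members, lists and tests were chosen with earlier results of these data known. Named genes were all listed cathepsins, up to 3 per list by smallest p-value, the 5 genes most correlated with Ctsd, marker genes and Rragc. The labels give no batch or date.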

Additional observations from a re-analysis of the deposited data

Results flagged for a closer look

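In 22 groups of libraries examined (the 9 genes, their sum and the share of Ctsd in it, in each genotype), 2 held a library apart from the rest by Dixon's criterion, where 1 in 20 would give 1.1. Ctsc, which encodes cathepsin C, was at 74.9 normalized counts in RragcS74N/+ replicate 1 and at 45.9 to 49.8 in the other 3 libraries, a gap of 0.866 of the range. Ctss, which encodes cathepsin S, was at 133 in Rragc+/+ replicate 4 and at 98.3 to 108 in the other 4, a gap of 0.729 of the range.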

How the results depend on the processing

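Between genotypes, 0 of the cathepsins and 0 of all genes passed the adjusted threshold under all 20 alternatives (pseudocount, scaling, filter, weights, moderation, tool, GC adjustment and removal of each library). Ctsd, Ctsa, Ctsb, Ctsz, Ctsc, Ctse and Ctsl kept their direction in each alternative that gave them a value, and the filter at a mean of 50 left out Ctsl and Ctsz. The log2 change of Ctsd ran from -0.72 to -0.45 with a library removed and from -0.62 to -0.30 otherwise. That of Ctsh turned to 0.062 with GC adjustment and ran from -0.11 to 0.046 with a library removed. That of Ctss was -0.052 with GC adjustment, -0.027 with array weights and -0.0021 in edgeR, and ran from -0.028 to 0.082 with a library removed. The number of cathepsins whose correlation with Ctsd passed was 0 to 1 with a library removed, the 1 being Ctsa (r = 0.85, exact permutation adjusted p = 0.0267) without RragcS74N/+ replicate 1, and 0 otherwise. Without the 2 libraries farthest in Ctsd, r was 0.54 for Ctsh, 0.071 for Ctse and 0.059 for Ctsl. The r of Ctsh was 0.11 after rescaling to the same total and that of Ctss -0.0015 after TMM scaling. With a library removed, r ran from -0.28 to 0.32 for Ctsh, -0.25 to 0.23 for Ctss and -0.69 to 0.085 for Ctse. The share of all genes correlated with Ctsd after adjustment ran from 0% without Rragc+/+ replicate 2, 3 or 4 to 13.9% without RragcS74N/+ replicate 1, and was 0% with GC adjustment, genotype means removed or the 2 farthest libraries left out, and 0.015% by Spearman's rho. The median log2 change of the cathepsins ran from -0.11 to 0.039 with a library removed. The cause of these changes was not tested. The least abundant genes, Ctsl and Ctsz, rested on 24 to 80 reads per library. No paired analysis was possible because replicates carry no numbers in the labels.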
